A study of Mus musculus with 7 samples.

Results

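The mitochondrial ribosomal proteins are the protein components of the ribosome inside mitochondria, and their genes were followed here in ventricles of mice with pressure overload. Members were the rows of the deposited expression table whose gene symbol starts with Mrpl (large subunit) or Mrps (small subunit) and a digit. This gave 76 of 23847 rows, 47 of the large and 29 of the small subunit, with no symbol present more than once. All 76 passed the filter on low values, which asked for 1 FPKM or more in 3 or more of the 7 libraries. FPKM scales the sequenced fragments of a gene by the length of its transcript and by the depth of the library.

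RNA came from ventricular lysate of male mice, with 4 libraries from sham-operated animals (Sham) and 3 from animals with trans-aortic banding (TAB). In the TAB group the exposed aorta was narrowed with a suture tied against a 27-gauge needle, and in the Sham group the suture was left untied. The treatment protocol puts the operation at 8 weeks of age, whereas the age label of every library and the series' design note give 12 weeks, so the time between operation and sampling is not settled by the labels. The labels name no strain, genotype or pooling of animals. Each library carries a code of its own in its description, but the labels do not say whether a code stands for an animal, so the p-values speak only of the spread among these 7 libraries, which may be technical.

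The mitochondrial ribosome translates the few messenger RNAs of the mitochondrial genome, all of which encode subunits of the respiratory chain or the ATP synthase. Its RNAs are made in mitochondria, but all of its proteins are encoded in the nucleus, made in the cytosol and imported. Some of these proteins descend from bacterial ribosomal proteins and others have no bacterial counterpart. The heart is rich in mitochondria, and inherited defects of several mitochondrial ribosomal proteins cause cardiomyopathy in humans.

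The genes were spread over 17 chromosomes, with 10 on chromosome 11, 8 on chromosome 17, 7 on chromosome 6 and 6 on chromosome 7. A feature that the selection did not use was their arrangement beside other genes. Within 1000 bases of their start, 32 of the 76 (42.1%) had the start of a protein-coding gene pointing the other way in the GENCODE M21 annotation. The same held for 10.9% of 21951 protein-coding genes and for 16.6% of the 10620 protein-coding genes that were tested here. Of the partners that are not members, 24 were tested. Among them 2 were higher in TAB (Mitd1 beside Mrpl30 and Wdfy1 beside Mrpl44), 2 were lower (Tmem63b beside Mrpl14 and Peo1, now called Twnk, beside Mrpl43) and 20 were not called. Mrpl30, Mrpl44 and Mrpl14 themselves did not pass the test. Mrpl43 was higher while Peo1 was lower. The starts of Mrpl43 and Twnk overlap in GENCODE, though their rows in the table do not.

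Promoters from RefSeq on GRCm38.p6, 250 bases before to 50 bases after a gene's start, were found by symbol for 67 of the 76 genes. Mrpl4, Mrpl13, Mrpl15, Mrpl19, Mrpl38, Mrpl54, Mrps28, Mrps34 and Mrps35 were not matched. Each promoter was searched on both strands for CCGGAAG, the core bound by ETS factors such as GABP (nuclear respiratory factor 2), for GCGCATG, a core of the NRF1 motif, and for AAGATGG, bound by YY1. The general promoter motifs CACGTG (the E-box), CCAAT and TATAAA (the TATA box) were searched as well. GABP and NRF1 are known regulators of nuclear genes for mitochondrial proteins. CCGGAAG was present in 24 of 67 genes (35.8%), against 20.4% of the 8578 tested genes with a promoter and 9.9% of all 27025 genes in the table of promoters. AAGATGG was present in 13 (19.4%, against 8.6% of tested genes and 7.3% of all) and GCGCATG in 8 (11.9%, against 8.2% and 4.4%). CCAAT was present in 27 (40.3%, against 42.9% of tested genes), and CACGTG and TATAAA in 5 each (7.5%, against 12.0% and 8.9% of tested genes). The cytosolic ribosomal protein genes held CCGGAAG in 23 of 56 (41.1%).

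The windows shown are the stretches before the start of 2 genes that rose in TAB and hold CCGGAAG, Mrpl3 and Mrps18a, and of 1 gene that fell and does not, Mrpl28. They are examples chosen for the motif and do not stand for all called members. Mrps23 also rose, and the stretch before its start held no full match, so its CCGGAAG reaches past the start. Each is printed 5′ to 3′ on the plus strand, on which all 3 genes lie, and ends at the base before the start in RefSeq. GENCODE has transcripts that begin slightly further upstream, inside the end of each window, and in Mrpl3 the CCGGAAG lies past that earlier start. Capitals mark CCGGAAG, and the window of Mrpl28 holds no match to the ETS, NRF1 or YY1 motif. Mrpl3 is from chr9:105053018-105053267, Mrps18a from chr17:46110754-46111003 and Mrpl28 from chr17:26123255-26123502, where the stretch begins past the end of the neighbouring gene Pgap6.
Mrpl3: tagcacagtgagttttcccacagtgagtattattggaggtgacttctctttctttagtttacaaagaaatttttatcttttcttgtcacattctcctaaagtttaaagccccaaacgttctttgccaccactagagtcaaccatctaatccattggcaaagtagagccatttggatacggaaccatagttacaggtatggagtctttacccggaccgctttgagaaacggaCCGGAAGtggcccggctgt
Mrps18a: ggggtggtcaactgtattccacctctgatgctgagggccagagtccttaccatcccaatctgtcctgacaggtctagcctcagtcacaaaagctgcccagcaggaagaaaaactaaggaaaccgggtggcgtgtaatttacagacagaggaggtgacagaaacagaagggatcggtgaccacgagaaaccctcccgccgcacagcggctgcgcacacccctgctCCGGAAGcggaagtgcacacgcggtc
Mrpl28: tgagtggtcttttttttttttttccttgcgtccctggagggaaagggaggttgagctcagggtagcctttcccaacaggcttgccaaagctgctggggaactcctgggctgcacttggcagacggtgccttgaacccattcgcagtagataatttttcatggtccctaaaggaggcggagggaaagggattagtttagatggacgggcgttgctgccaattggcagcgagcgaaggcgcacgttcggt

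In these ventricles the members covered a wide range of levels at the scale of FPKM, which is per length and can be compared between genes. Averaged over the 7 libraries, the large subunit ran from 5.79 FPKM (Mrpl17) to 475.8 FPKM (Mrpl42), and the small subunit from 9.72 FPKM (Mrps25) to 236.8 FPKM (Mrps21). After Mrpl42, the highest of the large subunit were Mrpl30 at 235.8, Mrpl12 at 205.9, Mrpl33 at 177.9 and Mrpl18 at 134.5 FPKM. Mrpl12 encodes the stalk protein of the large subunit, which is present there in several copies. The lowest beside Mrpl17 were Mrpl19 at 7.77, Mrpl35 at 11.5, Mrpl11 at 14.5 and Mrpl1 at 15.6 FPKM.

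In the small subunit Mrps21 was followed by Mrps23 at 121.7, Mrps16 at 103.6, Mrps36 at 96.9 and Mrps28 at 72.2 FPKM. The lowest beside Mrps25 were Mrps2 at 17.9, Mrps22 at 18.8, Mrps11 at 19.3 and Mrps10 at 21.3 FPKM. Most of these proteins stand in equal number in the ribosome, whereas the levels of their messenger RNAs were far apart. Genes with longer transcripts had lower values: across the 76 genes, Spearman's rho between level and the length of the longest coding transcript in GENCODE was -0.53, against -0.24 across 10560 tested rows with a match. Genes are not independent replicates, and FPKM depends on the length assumed for each gene. Taken over the longest transcript, the estimated depth put Mrpl41 lowest, at 143 fragments in its lowest library. A shorter transcript would give fewer fragments, so this is not a lower bound for the members.

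The summed level of both subunits did not separate the groups. The 47 large-subunit genes summed to 3250 ± 137 FPKM in Sham (SD, n = 4) and 3303 ± 99.0 FPKM in TAB (SD, n = 3), a ratio of 1.02. The 29 small-subunit genes summed to 1548 ± 54.6 and 1586 ± 34.1 FPKM, also a ratio of 1.02. Library sums ran from 3095 to 3382 FPKM in Sham and from 3245 to 3417 FPKM in TAB for the large subunit, so the ranges overlapped. They overlapped as well for the small subunit, at 1485 to 1607 and 1562 to 1625 FPKM. The sum of the large over that of the small subunit stayed between 2.07 and 2.12 in every library. In bulk tissue, fewer cells of a type and less RNA per cell cannot be told apart.

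**Figure D1:**
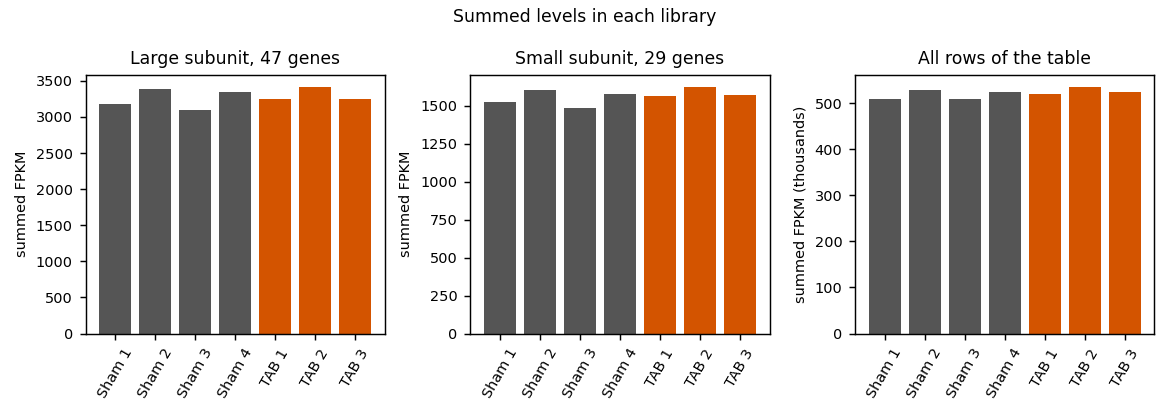
Summed FPKM of the large subunit, the small subunit and all rows of the table (y axes, from 0, the last divided by 1000) in each of the 4 Sham (grey) and 3 TAB (orange) libraries. Both subunits had their lowest sum in Sham 3 and their highest in TAB 2, and the groups overlapped.

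The members moved together from library to library within a group. Sham 3 was the lowest Sham library for 45 of 76 genes and Sham 1 for 24, whereas Sham 2 was the highest for 35 and the lowest for 0. Sham 4 was the highest for 31. TAB 2 was the highest TAB library for 40 of the 76. The sums over all rows of the table ran the same way, at 510016 and 510097 FPKM in Sham 1 and Sham 3, 527854 and 524468 FPKM in Sham 2 and Sham 4, and 519844, 535455 and 523646 FPKM in TAB 1 to 3. Such sums weigh the most abundant genes most, and the median over all tested rows ran otherwise. Against the Sham mean on the log2 scale it was -0.003 in Sham 1, 0.020 in Sham 2, -0.010 in Sham 3 and -0.007 in Sham 4. In TAB 1, TAB 2 and TAB 3 it was 0.059, 0.038 and 0.037. What part of the spread among members goes with these totals was not tested.

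Single genes were compared on log2(FPKM + 1) with limma across all 11601 rows above the filter, and a call was an adjusted p under 0.05. Log2 fold changes are TAB minus Sham on that scale, given with their standard error, and they slightly understate the change of the lowest genes. Of the 76 members, 12 were called (15.8%), against 20.3% of all rows tested, so the members' share was close to, and below, the background. Higher in TAB were 8 members (10.5%, against 13.3% of all rows) and lower were 4 (5.26%, against 7.05%). The large subunit had 5 higher and 2 lower of 47, and the small subunit 3 higher and 2 lower of 29. The groups did not overlap for 18 members (23.7%), against 31.1% of all rows. In 10 of these every TAB library lay above every Sham library (19.9% of all rows did so) and in 8 below (11.2% of all rows).

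Changes were small. The median log2 fold change was 0.02 in the large and 0.04 in the small subunit, beside 0.05 over all rows tested, and single members lay between -0.29 and 0.23. It was above 0 in 45 of the 76 genes. For 63 of the 64 members that were not called, the 95% confidence interval of the difference stayed within 0.32 on the log2 scale in either direction. The exception was Mrpl20, whose interval reached 0.42.

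**Figure D2:**
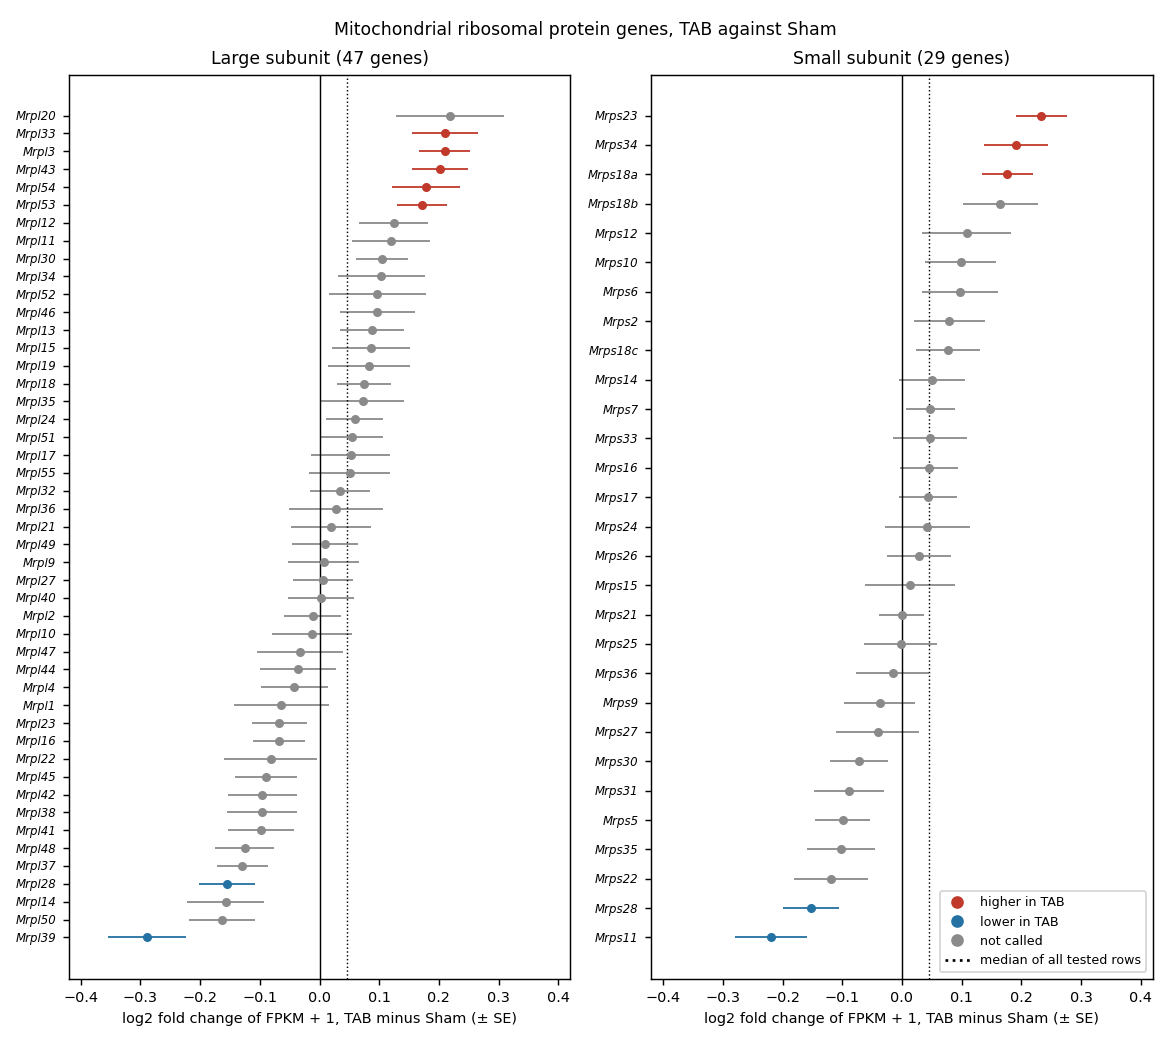
Log2 fold change of FPKM + 1, TAB minus Sham (x axis, with bars for the standard error), of each large-subunit gene (47, left) and small-subunit gene (29, right), ordered by size. Red and blue mark genes called higher and lower, grey those not called, and the dotted line the median of all tested rows at 0.05; all members lay between -0.29 and 0.23.

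The called members lie at these places on mm10, with positions from the table and strands from GENCODE. Those higher in the large subunit by name were Mrpl3 at chr9:105053268-105077476 (plus strand), Mrpl33 at chr5:31613951-31622644 (plus strand), Mrpl43 at chr19:45005014-45006442 (minus strand), Mrpl53 at chr6:83109108-83109932 (plus strand) and Mrpl54 at chr10:81264722-81266926 (minus strand). In the small subunit they were Mrps18a at chr17:46111004-46128908 (plus strand), Mrps23 at chr11:88204418-88211507 (plus strand) and Mrps34 at chr17:24895120-24896273 (plus strand). Those lower were Mrpl28 at chr17:26123503-26126613 (plus strand) and Mrpl39 at chr16:84717580-84735302 (minus strand) in the large and Mrps11 at chr7:78783131-78792988 (plus strand) and Mrps28 at chr3:8802146-8923857 (minus strand) in the small subunit.

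Of the small-subunit genes, Mrps23 rose most. It encodes a protein of the small subunit without a bacterial counterpart. Mrps23 stood at 111, 117, 111 and 113 FPKM in Sham 1 to 4 and at 129, 132 and 138 FPKM in TAB 1 to 3. Every TAB library was above every Sham library, with the lowest TAB value well clear of the highest Sham value. This was a log2 fold change of 0.23 ± 0.04 (limma adjusted p = 0.00373), and the call was made under all 17 alternative settings tried.

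Mrps34, another mitochondria-specific protein, whose loss in humans and mice destabilizes the small subunit, had 52.8, 51.9, 46.2 and 51.4 FPKM in Sham and 58.3, 59.4 and 55.8 FPKM in TAB. The groups did not overlap, although Sham 3 lay below the other Sham libraries. Mrps34 had a log2 fold change of 0.19 ± 0.05 (limma adjusted p = 0.0286), and without Sham 3 the gene was not called. It was also not called without TAB 1 or without TAB 2, and 10 of the 17 alternatives kept the call.

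Mrps18a is named for the small subunit, but structures of the mammalian mitochondrial ribosome place its protein in the large subunit. Its level was 64.1, 66.7, 63.1 and 66.8 FPKM in Sham and 73.8, 75.5 and 72.0 FPKM in TAB. All TAB libraries were above all Sham libraries. The log2 fold change was 0.18 ± 0.04 (limma adjusted p = 0.0147), and the call was lost without TAB 1 and under both rescalings of the libraries. The other Mrps18 genes encode small-subunit proteins. Mrps18b had the groups apart with TAB above, at 0.16 ± 0.06, but did not pass the test (limma adjusted p = 0.0893). Counted by structure rather than by name, 6 of 49 large-subunit genes were higher (12.2%) and 2 lower (4.08%). Of 26 small-subunit genes, 2 were higher (7.69%) and 2 lower (7.69%). Over all rows tested, 13.3% were higher and 7.05% lower, and the difference between the subunits was not tested.

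In the large subunit Mrpl3 had the smallest adjusted p. Its protein lies close to the centre where peptide bonds form, and mutations in the human gene cause cardiomyopathy. Mrpl3 stood at 55.2, 56.0, 56.3 and 58.8 FPKM in Sham and at 63.9, 65.8 and 67.1 FPKM in TAB. The groups were clearly apart. Its log2 fold change was 0.21 ± 0.04 (limma adjusted p = 0.00672), and 16 of the 17 alternatives kept the call.

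Mrpl33, a small protein with a bacterial counterpart, was measured at 158, 176, 167 and 165 FPKM in Sham and at 190, 208 and 181 FPKM in TAB. TAB 3 was closest to Sham 2, and the groups did not overlap. The log2 fold change was 0.21 ± 0.05 (limma adjusted p = 0.0215). The call was lost without Sham 1, without TAB 1 and without TAB 2, and 12 of the 17 alternatives kept it.

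Mrpl43, Mrpl53 and Mrpl54 are proteins of the large subunit with no bacterial counterpart. Mrpl43 was at 30.5, 30.7, 31.4 and 33.0 FPKM in Sham and 35.5, 36.8 and 36.5 FPKM in TAB, a log2 fold change of 0.20 ± 0.05 (limma adjusted p = 0.0127). Mrpl53 was at 96.4, 94.4, 91.6 and 97.9 FPKM in Sham and 105, 111 and 106 FPKM in TAB, a log2 fold change of 0.17 ± 0.04 (limma adjusted p = 0.0158). In both genes every TAB library was above every Sham library. The row of Mrpl53 overlaps that of Ccdc142 by 14 bases, and Ccdc142 had a mean of 0.925 FPKM. Without TAB 2, Mrpl53 was not called, and without Sham 2 and TAB 3 together neither Mrpl43 nor Mrpl53 was. Of the 17 alternatives, 15 kept the call of Mrpl43 and 14 that of Mrpl53.

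Mrpl54 was at 74.7, 84.7, 72.3 and 72.8 FPKM in Sham and 85.0, 85.7 and 87.5 FPKM in TAB. Sham 2 stood above the other Sham libraries and almost reached TAB 1. The log2 fold change was 0.18 ± 0.06 (limma adjusted p = 0.0482), close to the threshold, and only 5 of the 17 alternatives kept the call. It was lost when any library other than Sham 2 was left out.

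Mrpl39 had the largest fall of all members. Its protein has no counterpart in the bacterial ribosome and resembles part of a threonyl-tRNA synthetase. Mrpl39 stood at 33.8, 34.7, 35.4 and 33.2 FPKM in Sham and at 26.8, 31.3 and 25.7 FPKM in TAB. All TAB libraries were below all Sham libraries, with TAB 2 nearest to them. It fell with a log2 fold change of -0.29 ± 0.07 (limma adjusted p = 0.0112). The call was lost without TAB 1 and without Sham 2 and TAB 3 together.

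Mrpl28, with a bacterial counterpart, was at 102, 109, 108 and 110.3 FPKM in Sham and 91.5, 100.2 and 97.0 FPKM in TAB. TAB 2 and Sham 1 were close to each other, and the groups did not overlap. Mrpl28 had a log2 fold change of -0.16 ± 0.05 (limma adjusted p = 0.0381). The call was lost when Sham 2, Sham 3, Sham 4, TAB 1 or TAB 3 was left out, and 8 of the 17 alternatives kept it.

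Among small-subunit genes Mrps11 and Mrps28 fell, both with a bacterial counterpart. Mrps28 was at 75.9, 79.7, 71.1 and 75.3 FPKM in Sham and 69.1, 67.1 and 67.2 FPKM in TAB. Every TAB library was below every Sham library, with Sham 3 and TAB 1 the nearest. The log2 fold change was -0.15 ± 0.05 (limma adjusted p = 0.0420), and leaving out any library except Sham 3 ended the call. Of the 17 alternatives, 7 kept it.

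Mrps11, whose bacterial counterpart lies on the platform of the small subunit, was at 21.1, 21.3, 21.0 and 18.9 FPKM in Sham and 17.9, 18.2 and 16.5 FPKM in TAB. Sham 4 was near the TAB libraries but still above them. Its log2 fold change was -0.22 ± 0.06 (limma adjusted p = 0.0273). The call was lost without Sham 1, Sham 2, Sham 3, TAB 1 or TAB 3, and 11 of the 17 alternatives kept it.

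**Figure D3:**
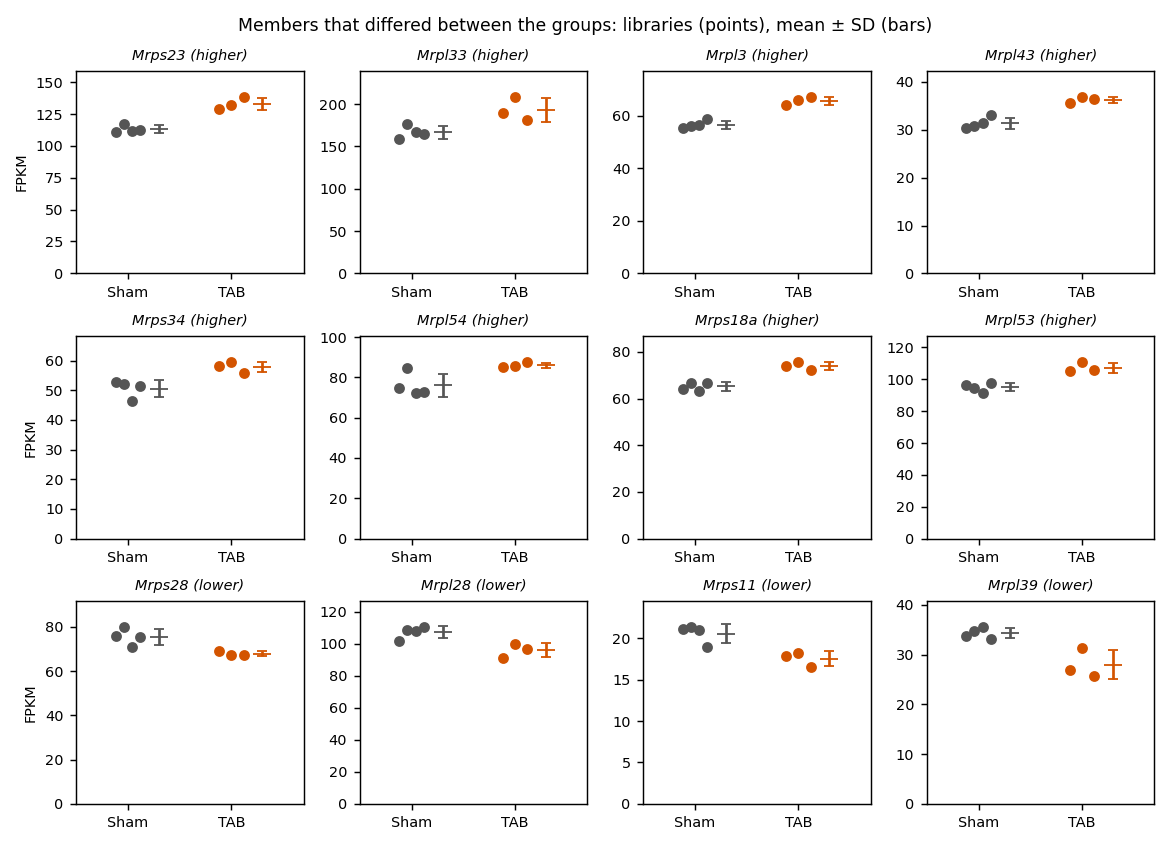
FPKM (y axis, from 0) of the 12 called members in the 4 Sham (grey) and 3 TAB (orange) libraries; points are libraries and bars the mean ± SD of each group. In all 12 the groups did not overlap, with 8 genes higher and 4 lower in TAB.

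Mrps11 and Mrpl46 are the only members that lie head to head with each other. The table leaves 41 bases between their rows, whereas their ends overlap in GENCODE, and they were compared as a pair after their values had been seen. Mrpl46 was at 31.9, 39.1, 34.4 and 35.5 FPKM in Sham and 37.7, 37.6 and 37.5 FPKM in TAB, a log2 fold change of 0.10 ± 0.06 (limma adjusted p = 0.312). Its groups overlapped, since Sham 2 was above all TAB libraries. The ratio of Mrps11 to Mrpl46 was 0.662, 0.545, 0.610 and 0.533 in Sham and 0.475, 0.484 and 0.439 in TAB. All TAB ratios were below all Sham ratios. The ratio was 0.587 ± 0.0602 in Sham (SD, n = 4) and 0.466 ± 0.0237 in TAB (SD, n = 3), a log2 difference of -0.33. No test is given, since the pair was picked for its values.

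**Figure D4:**
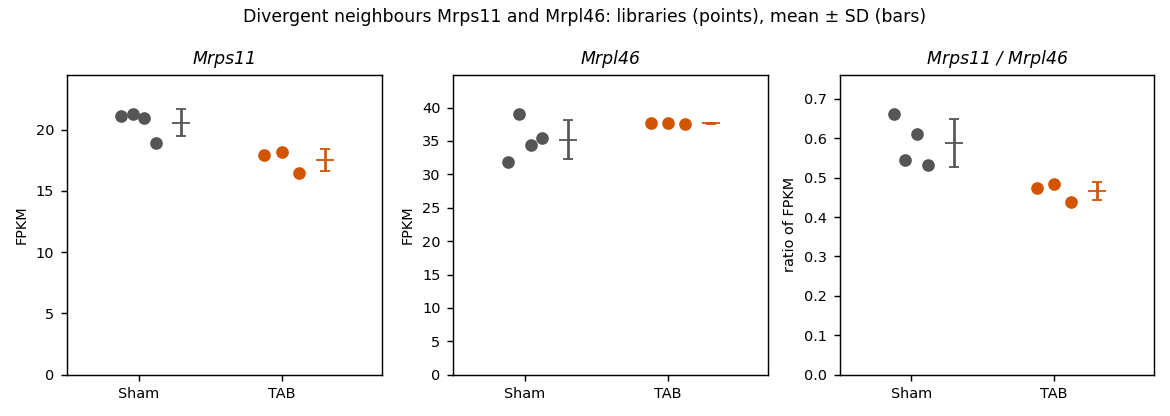
FPKM of Mrps11 and of Mrpl46 and the ratio of the former to the latter (y axes, from 0) in the 4 Sham (grey) and 3 TAB (orange) libraries; points are libraries and bars the mean ± SD. Mrps11 and the ratio were lower in every TAB library, and the Mrpl46 groups overlapped.

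A few members outside the test's threshold also had groups that did not overlap. Above Sham in TAB were Mrpl11 and Mrps18b. Below Sham were Mrpl37 (-0.13 ± 0.04, limma adjusted p = 0.0531), Mrpl50 (-0.16 ± 0.06, limma adjusted p = 0.0619), Mrps5 and Mrpl41. Mrpl37, Mrpl50, Mrps5, Mrpl46 and Mrpl20 are named because of their values. Mrpl20 had one of the largest differences, 0.22 ± 0.09, with a wide spread in Sham, from 50.5 to 68.0 FPKM against 64.6 to 72.3 FPKM in TAB (limma adjusted p = 0.123). It was called when Sham 2, its highest Sham library, was left out.

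The single most abundant member of each subunit was not called. Mrpl42 was at 480.3, 507, 448 and 522 FPKM in Sham and 431, 483 and 459 FPKM in TAB, and the groups overlapped. Mrps21 was nearly level, at 237 ± 4.71 FPKM in Sham (SD, n = 4) and 237 ± 5.49 FPKM in TAB (SD, n = 3), with a log2 fold change of -0.00 ± 0.04. Mrps22, whose human gene is mutated in a form of cardiomyopathy, was at 19.5 ± 1.23 FPKM in Sham and 17.8 ± 0.850 FPKM in TAB (-0.12 ± 0.06, limma adjusted p = 0.207). Mrps36, which recent work places in the 2-oxoglutarate dehydrogenase complex and not in the ribosome, was at 97.2 ± 3.91 and 96.4 ± 9.03 FPKM, without a call.

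The members were also counted by the origin of the protein, as a description. Of 46 genes with a bacterial counterpart, 2 were higher and 3 lower, with a median log2 fold change of 0.04. Of 29 genes specific to mitochondria, 6 were higher and 1 lower, with a median of -0.00. Called in either direction were 10.9% of the former and 24.1% of the latter, beside 20.3% of all rows tested. The groups did not overlap for 7 of the 46 (15.2%) and for 11 of the 29 (37.9%), 7 of these with TAB above and 4 below, beside 31.1% of all rows. Mrps18a, which was called higher, and Mrps18b, whose TAB libraries all lay above Sham, were counted as specific to mitochondria. Their namesake Mrps18c was counted with a bacterial counterpart, so the class of Mrps18a and Mrps18b is in doubt. The counts above rest on this choice. The difference between these classes was not tested.

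The members were then counted by exon number. Of the 20 members with up to 3 exons, 4 were higher and 1 lower, with a median log2 fold change of 0.05. Members with 4 to 7 exons (43 genes, 3 higher and 2 lower) had a median of 0.04. Those with 8 or more (13 genes, 1 higher and 1 lower) had a median of -0.09. Over all tested rows with a GENCODE match, the medians for the same exon classes were 0.07, 0.06 and 0.04. In these, 16.1%, 15.3% and 12.4% were higher and 5.4%, 5.6% and 8.2% lower. Across the 76 genes Spearman's rho between exon number and log2 fold change was -0.33, and across the 10560 rows it was -0.08, given as a description since all points share the same libraries. For transcript length rho was -0.13 in the members and -0.11 in these rows. Among all tested rows, those with a transcript of up to 1000 bases were called higher in 21.0% of 537 and longer ones in 13.3% of 10023.

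On the deposited scale CCGGAAG lay unevenly among the few called members as well. CCGGAAG was present in the promoters of all 6 higher members that had a promoter sequence (Mrpl3, Mrpl33, Mrpl43, Mrpl53, Mrps18a and Mrps23) and in 0 of the 3 lower ones (Mrpl28, Mrpl39 and Mrps11). It was present in 18 of 58 (31.0%) members that were not called. Over all tested genes the shares were 16.0% of the higher, 9.2% of the lower and 22.1% of those not called. This was noticed after the values had been seen and was not tested. The calls behind it also depended on the scaling. With median-of-ratios rescaling only Mrpl3 and Mrps23 of the 6 stayed higher. Among the genes then newly lower, Mrpl48 held CCGGAAG in a promoter, whereas Mrpl14, Mrpl37, Mrpl50 and Mrps5 did not hold it. Under quantile normalization all of the 6 but Mrps18a stayed higher, and the newly lower Mrpl14, Mrpl37 and Mrpl50 did not hold it. In Mrpl33, Mrpl43 and Mrpl53 the bases just before the start lie within another gene (Gm38424, Twnk and Ccdc142). In Mrps23 the motif was not wholly before the start. Gabpa, the DNA-binding subunit of GABP, was at 14.1 ± 0.606 FPKM in Sham and 12.3 ± 0.642 FPKM in TAB, with a log2 fold change of -0.18 that did not pass the test (limma adjusted p = 0.0569).

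Some proteins of the mitochondrial ribosome carry other symbols. Of 7 such genes (Dap3, Ptcd3, Aurkaip1, Chchd1, Gadd45gip1, Mrp63 and Ict1), 0 passed in either direction, with a median log2 fold change of 0.02. Dap3, a small-subunit protein that binds GTP, was at 21.4 ± 0.788 FPKM in Sham (SD, n = 4) and 19.4 ± 0.772 FPKM in TAB (SD, n = 3). Its groups did not overlap, and its difference of -0.13 was not called.

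Genes that assemble the mitochondrial ribosome and modify its RNA had 1 higher and 1 lower of 28, with a median log2 fold change of -0.05. Trub2, a pseudouridine synthase of mitochondrial RNA, rose from 9.71 ± 0.901 to 11.9 ± 0.995 FPKM (0.27, limma adjusted p = 0.0380). Spg7, a subunit of the m-AAA protease that processes the large-subunit protein MRPL32, fell from 49.9 ± 1.42 to 44.2 ± 1.83 FPKM (-0.17, limma adjusted p = 0.0263). Of 15 mitochondrial translation factors, 0 were higher and 3 lower (median -0.04). These were Lrpprc, which stabilizes mitochondrial messenger RNAs, at -0.19 (limma adjusted p = 0.00666), the elongation factor Gfm1 at -0.13 (limma adjusted p = 0.0333) and the ribosome recycling factor Mrrf at -0.18 (limma adjusted p = 0.0437). Lrpprc was at 64.3 to 65.3 FPKM in the Sham and 56.3 to 56.9 FPKM in the TAB libraries.

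Of 17 mitochondrial aminoacyl-tRNA synthetases, which charge the transfer RNAs that the ribosome uses, 0 were higher and 1 lower. It was Iars2, the isoleucyl enzyme, at -0.18 (limma adjusted p = 0.0248). Of 21 genes of mitochondrial DNA transcription and RNA processing, 0 were higher and 1 lower. It was Peo1, the mitochondrial DNA helicase, at -0.23 (limma adjusted p = 0.0347). Of 12 transcription factors and coactivators of mitochondrial biogenesis, 0 were higher and 1 lower. Ppargc1a, the coactivator PGC-1α, fell from 34.1 ± 1.54 FPKM in Sham to 26.0 ± 2.27 FPKM in TAB (-0.38, limma adjusted p = 0.00241). The list as a whole had a median of -0.16.

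Respiratory chain genes and cytosolic ribosomal protein genes gave a frame for these values. Nuclear genes of complex I had 0 higher and 4 lower of 37 (median log2 fold change -0.08), and those of complex V 0 higher and 4 lower of 15 (median -0.14). Complex II had 0 higher and 3 lower of 4 (median -0.19), complex III 0 higher and 1 lower of 9 (median -0.10) and complex IV 1 higher and 4 lower of 16 (median -0.10). The tricarboxylic acid cycle had 0 higher and 14 lower of 18 (median -0.19). This list and that of complex II share genes, so their counts are not separate. The cytosolic ribosomal proteins had 34 higher and 0 lower of 76, with a median of 0.14. These counts depended on the processing. The cytosolic ribosomal proteins had 11 higher with median-of-ratios rescaling, 30 with quantile normalization, 12 with the plain eBayes fit, and 15 (without TAB 1 or without TAB 2) to 41 (without Sham 2) with single libraries left out. Complex I had 16 lower with median-of-ratios rescaling and 14 with quantile normalization, complex V 8 with either, complex III 5 and 1, complex IV 9 and 5, and the factors of mitochondrial biogenesis 6 with either. The tricarboxylic acid cycle had 8 to 16 lower and 0 higher over all settings tried. On the deposited scale the medians of both mitochondrial ribosomal subunits, 0.02 and 0.04, lay between these lists and beside the median of all rows. The difference between the lists was not tested.

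**Figure D5:**
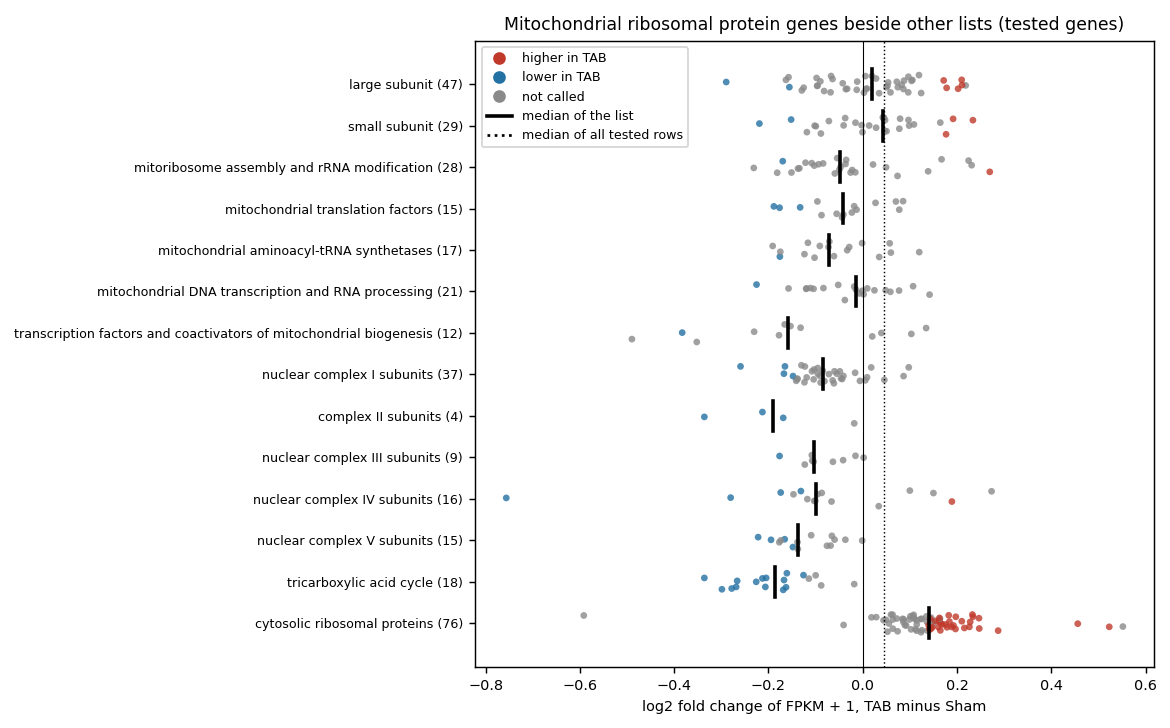
Log2 fold change of FPKM + 1, TAB minus Sham (x axis), of every tested gene in each list (rows, with the number of genes); red and blue mark genes called higher and lower, black bars list medians and the dotted line the median of all tested rows at 0.05. The mitochondrial ribosomal subunits have medians of 0.02 and 0.04, the tricarboxylic acid cycle -0.19 and the cytosolic ribosomal proteins 0.14.

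The directions of members depended on how libraries were scaled. Median-of-ratios rescaling moved the median of all rows from 0.05 to -0.01, and quantile normalization also to -0.01. Of the members, 2 were then higher and 9 lower with the former, and 6 higher and 7 lower with the latter, where the deposited scale gave 8 and 4. Over all rows the share of called rows that were higher was 65.3% on the deposited scale, 45.4% and 46.0% under these scalings. With median-of-ratios rescaling Mrps23 and Mrpl3 were still called higher and Mrpl28, Mrpl39, Mrps11 and Mrps28 lower. Mrpl33, Mrpl43, Mrpl53, Mrpl54, Mrps18a and Mrps34 were no longer called, and Mrpl14, Mrpl37, Mrpl48, Mrpl50 and Mrps5 were called lower. Under quantile normalization 10 of the 12 calls were kept, and Mrpl54 and Mrps18a were lost.

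Summed markers of some other cell types of the heart moved with the groups. Fibroblast markers summed to 437 to 496 FPKM in Sham and 590.0 to 784 FPKM in TAB, with 9 of 10 higher. Smooth muscle and pericyte markers summed to 244 to 253 FPKM in Sham and 278 to 315 FPKM in TAB, with 5 of 8 higher. Macrophage and monocyte markers summed to 251 to 279 FPKM in Sham and 278 to 345 FPKM in TAB, with 4 of 9 tested markers higher. Their groups overlapped, since TAB 2 lay just below Sham 4. Endothelial markers overlapped as well, at 1338 to 1878 and 1278 to 1512 FPKM, with 4 of 10 higher. Cardiomyocyte markers summed to 78592 to 84514 FPKM in Sham and 77007 to 84466 FPKM in TAB, with 0 higher and 5 lower of 10. The part of these shifts in the values of the members was not tested. Atrial markers ranged from 41.3 to 288 FPKM in Sham and from 33.8 to 305 FPKM in TAB, with 0 of 4 tested called. They were uneven within both groups, at 288 FPKM in Sham 2 and 305 FPKM in TAB 3 but 33.8 to 135 FPKM in the other libraries. With Sham 2 and TAB 3 left out together, only Mrpl33, Mrpl54, Mrps18a and Mrps23 were still called among the members. The share called over all rows fell as well, from 20.3% to 11.7%, with fewer libraries in the test. Whether atrial tissue had a part in this was not tested. Lymphocyte markers had 1 of 6 above the filter and it was not called. Markers of lung and thymus summed to at most 0.124 FPKM, and Sftpb, Scgb1a1 and Dntt were listed at 0 in all 7 libraries. Markers of pressure load separated the groups as labelled, with 6 of 7 higher and 1 lower, among them Acta1 at 134 ± 23.3 FPKM in Sham and 2512 ± 422 FPKM in TAB.

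The rows of 9 members overlap those of other genes in the table: Mrpl19, Mrpl24, Mrpl41, Mrpl48, Mrpl49, Mrpl53, Mrps6, Mrps25 and Mrps27. Libraries were stranded, but the setting used in quantification is not given, so shared reads cannot be told apart for these. Of the 9, Mrpl53 was the one called. GENCODE names 5 pseudogenes of members (of Mrpl23, Mrpl48 and Mrps36), and reads from such copies could add to their values. Depth, estimated from the whole-fragment steps of low values, was 10.8 to 12.2 M (mega) fragments per library.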

How the data were processed

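RNA of 4 Sham and 3 TAB ventricle libraries was measured by polyA-enriched stranded RNA sequencing. The authors deposited a single table of FPKM values, 1 column per library. TopHat, Cufflinks and the mm10 build are named in the submitters' processing notes; versions, annotation, strand setting and scaling of the libraries are not given. Column names are quoted in the samples' descriptions and were matched by them, and the titles gave group and replicate number. Start positions in the table count from 0 and are given from 1.

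Values were transformed to log2(FPKM + 1). Rows with 1 FPKM or more in 3 or more libraries (11601) entered a two-sided test by limma (version 3.58.1, R 4.3.3; eBayes with trend and robust), adjusted by Benjamini-Hochberg across all of them, with a threshold of 0.05. The members, lists and tests were chosen with earlier results of these data known, and lists are described by counts and medians only.

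Members named are those called, the 5 highest and 5 lowest of each subunit, those with a place or row in doubt and those with a Sham library far from the others; 5 more are named as chosen by their values, and up to 4 genes of each other list were eligible by smallest adjusted p. Strand, exons and neighbours come from GENCODE M21 (GRCm38), with older symbols of neighbours found among RefSeq synonyms, and promoters from RefSeq (GRCm38.p6). A longer form of the NRF1 motif was searched first and is not reported. Depth was estimated as the number of fragments at which most low values of single-transcript genes fell near whole fragments (62.2% to 70.3% of 64 to 74 values per library), so counts were not recovered. Alternatives were pseudocounts of 0.1 and 0.5, no filter, a mean FPKM of at least 5, quantile normalization, median-of-ratios rescaling, array weights, a plain eBayes fit (no trend, not robust), a replicate block, leaving out each library, and leaving out Sham 2 and TAB 3 together.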

Additional observations from a re-analysis of the deposited data

Results flagged for a closer look

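For 5 of the 76 members, a single Sham library lay far from the other 3, by a gap that exceeded Dixon's critical share of the group's range for 4 values. Chance flags about 1 in 20 groups, so about as many would be met among 76 genes, and the TAB group, with 3 libraries, was not examined. Mrpl14, a large-subunit protein, stood at 102.373 FPKM in Sham 2, with the other Sham libraries between 89.7 and 91.5 FPKM. Mrps18c stood at 61.4034 FPKM in Sham 4, with the next value at 57.6 FPKM. Low values were those of Mrps11 in Sham 4 (18.8904 FPKM, the next at 21.0 FPKM), Mrps15 in Sham 3 (47.0736 FPKM, the next at 53.5 FPKM) and Mrps16 in Sham 3 (94.8 FPKM, the next at 103.8 FPKM). Sham 3 was the lowest Sham library for 45 of the 76 members. Of the 5 genes only Mrps11 was called in TAB against Sham, and without Sham 4 it was still called; Mrpl14 was called lower under median-of-ratios rescaling, quantile normalization, the replicate block and without TAB 2.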

How the results depend on the processing

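Pseudocounts of 0.1 and 0.5 called the same 12 members, a filter at a mean FPKM of 5 kept all 12 and added Mrpl37, and array weights kept 11. Of the counts of calls among members and over the table, those that moved by more than 1.5 times are given here, and the cause was not tested. Where libraries were left out, fewer of them entered the test. Without the filter 1 large-subunit and 1 small-subunit gene were lower. Median-of-ratios rescaling gave 1250 rows lower over the table, 1 large-subunit gene higher and 6 lower, and 1 small-subunit gene higher, with medians of -0.0378 and -0.0153. Quantile normalization gave 5 large-subunit genes lower. The plain eBayes fit gave 3 large-subunit genes higher and 1 lower, and 1 small-subunit gene lower. Whether the replicate numbers pair the libraries is not settled. Deviations of same-numbered libraries correlated at 0.08, 0.17 and 0.17 for TAB 1, TAB 2 and TAB 3. Libraries of unlike number correlated at -0.25 to 0.10. For TAB 2 and TAB 3 the same-numbered Sham library was the closest, whereas TAB 1 was closer to Sham 3. With the replicate number as a block 1892 rows were called and 10 members, 9 of them among the 12, with 1 small-subunit gene lower. Only Sham has a replicate number 4, so Sham 4 did not enter the difference under the block. The medians over all rows and over the members were those of the fit without Sham 4. Without Sham 2 and TAB 3 together, 959 rows were higher and 395 lower, with 4 members called, all higher: 2 large-subunit genes higher and 0 lower, and 0 small-subunit genes lower. Leaving out each library in turn gave 875 (without TAB 1) to 1361 rows higher and 545 (without TAB 3) to 717 lower, 2 to 6 large-subunit genes higher and 1 to 3 lower, and 1 to 4 small-subunit genes higher and 0 to 1 lower. Members called numbered 5 without TAB 1 (4 of the 12 kept) and 8 to 10 without any other single library. Both medians kept their sign there, at 0.000671 to 0.0453 for the large and 0.00415 to 0.0565 for the small subunit. Of all 76 members, 17 turned sign with median-of-ratios rescaling, 9 with quantile normalization, 3 with array weights, 7 with the replicate block, 3 to 9 with single libraries left out and 9 without Sham 2 and TAB 3 together; none of the 12 called members did so in any setting. The named ones that turned were Mrpl17 (-0.0143 with quantile normalization), Mrps16 (-0.0137 with median-of-ratios rescaling), Mrpl49 (-0.0483 with median-of-ratios rescaling, -0.0194 with quantile normalization and -0.0274 to 0.0403 with single libraries left out) and Mrps15 (-0.0446, -0.00642 and -0.0472 to 0.0953 in the same order). With single libraries left out, Mrpl1 ran from -0.126 to 0.0179, Mrps27 from -0.0919 to 0.00415, Mrps21 from -0.0197 to 0.0115, Mrps25 from -0.0440 to 0.0304 and Mrps36 from -0.0901 to 0.0316. The replicate block gave 0.000505, 0.0163 and 0.00496 for Mrps21, Mrps25 and Mrps36, and leaving out Sham 2 and TAB 3 together gave 0.0208, 0.0206 and 0.0242. Precision is set by the spread between few libraries.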
